A study of Mus musculus with 577 samples.

Results

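The 31 genes described here act in meiotic prophase I, the stage at which homologous chromosomes pair, are joined along their length and exchange DNA. They were taken as a list by gene name from every gene count table, where 30 were found by symbol and Meioc by its gene identifier, out of 22060 protein-coding genes. The question put to the data was which of them were still read in oocytes of primary and later follicles, with mouse embryonic stem cells (mESCs) and granulosa cells, the somatic cells that surround the oocyte, as reference. The 577 samples of the series were single cells, small pools of cells or serial sections of mouse ovary and single mESCs, prepared for RNA sequencing with DRaqL, a lysis step for cells cut out by laser capture microdissection (LCM), or with methods set beside it.

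Ovaries came from 8-week-old female mice with no genetic change named, and the strain was not given in the sources used here. The labels name no mouse for a cell, but by the study's text the amplification methods set side by side, formalin included, were run on sections of 1 ovary, so that the preparations are not separate animals. Sections were alcohol-fixed, or fixed in formalin for 24 h, and stained with cresyl violet. With DRaqL-SC3-seq, which reads the 3′ ends of transcripts, there were 14 libraries of oocytes from primary follicles, 30 of oocytes from secondary-to-early antral follicles (later oocytes below), 31 of granulosa cells neighboring an oocyte, 26 of non-neighboring granulosa cells, 45 of freshly dissociated mESCs and 36 of mESCs isolated with LCM from ethanol-fixed cell blocks. The mESCs were grown in 2iLIF medium, which holds them in a naive state. Primary and later oocytes were also prepared with SMART-Seq v4 (7 and 11 libraries), with DRaqL-SMART-Seq v4 (6 and 9) and with DRaqL from formalin-fixed sections (5 and 7). One mouse in proestrus gave 8 oocytes isolated with LCM from 1 ovary and prepared with DRaqL-Smart-seq2. Its other ovary gave 14 grown oocytes that were freshly dissociated in the presence of a cAMP analog, used to hold oocytes in meiotic arrest, and prepared with Smart-seq2.

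In the ovary, oocytes pass through leptotene to diplotene of prophase I before or around birth and then rest, so that an adult primary or secondary follicle holds an oocyte that finished pairing and exchange long before. Among the members, 7 build the synaptonemal complex, the ladder between paired chromosomes (Sycp1, Sycp2, Sycp3, Syce1, Syce2, Syce3 and Tex12). The meiotic cohesins, which hold sister chromatids together, and a protector of cohesin make up 5 (Smc1b, Rec8, Stag3, Rad21l and Sgol2a). Chromosome-axis proteins with a HORMA domain and the ATPase that removes them make up 3 (Hormad1, Hormad2 and Trip13). Another 3 serve the formation of DNA breaks (Spo11, Mei1 and Mei4), and 4 serve strand exchange (Dmc1, Meiob, Spata22 and Tex15). Crossing over is served by 5 (Msh4, Msh5, Mlh3, Rnf212 and Tex11), entry into prophase by 3 (Stra8, Meioc and Ythdc2) and the bridge between germ cells by Tex14.

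Many germline genes are kept silent in somatic cells by factors that sit at their promoters, among them E2F6, which binds TCCCGC, and partners of MAX, which bind the E-box CACGTG. RefSeq windows of 300 bases (250 before and 50 after the annotated start, assembly GRCm38.p6) were given for 26 of the 31 members. TCCCGC, read on both strands, was held by a window of 15 of the 26 members (57.7%), against 22% of all 27025 genes in the table. CACGTG, its own reverse complement, was held by 7 members (26.9%), against 8.09% of all genes. The string CNCCTCAG, known for STRA8, was held by 5 members (19.2%), against 9.12% of all genes. None of the strings contains another, and a match describes the sequence only. The 250 bases upstream of the start are shown 5′ to 3′ on the strand of the gene for 5 members. These are 4 of the 6 members that were past 2-fold between primary and later oocytes in every preparation (Sycp3, Smc1b, Syce1 and Syce2), and Hormad1. The windows shown for Sycp3 and Hormad1 held both TCCCGC and CACGTG. Capitals mark TCCCGC (or GCGGGA, the same site on the other strand) and CACGTG.
Sycp3: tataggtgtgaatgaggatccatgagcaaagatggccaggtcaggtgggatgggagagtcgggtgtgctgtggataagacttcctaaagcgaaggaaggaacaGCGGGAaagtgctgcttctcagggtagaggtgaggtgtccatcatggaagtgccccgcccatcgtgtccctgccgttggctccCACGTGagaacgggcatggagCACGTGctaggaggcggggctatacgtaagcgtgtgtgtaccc
Smc1b: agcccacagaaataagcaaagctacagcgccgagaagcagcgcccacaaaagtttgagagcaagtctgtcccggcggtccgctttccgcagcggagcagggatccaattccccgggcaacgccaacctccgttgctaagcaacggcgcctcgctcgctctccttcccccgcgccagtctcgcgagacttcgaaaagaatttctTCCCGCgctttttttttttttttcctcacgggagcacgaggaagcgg
Syce1: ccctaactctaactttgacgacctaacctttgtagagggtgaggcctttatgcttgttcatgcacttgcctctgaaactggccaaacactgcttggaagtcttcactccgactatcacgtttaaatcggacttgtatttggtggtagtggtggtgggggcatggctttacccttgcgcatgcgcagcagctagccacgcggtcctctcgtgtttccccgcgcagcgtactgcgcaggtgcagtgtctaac
Syce2: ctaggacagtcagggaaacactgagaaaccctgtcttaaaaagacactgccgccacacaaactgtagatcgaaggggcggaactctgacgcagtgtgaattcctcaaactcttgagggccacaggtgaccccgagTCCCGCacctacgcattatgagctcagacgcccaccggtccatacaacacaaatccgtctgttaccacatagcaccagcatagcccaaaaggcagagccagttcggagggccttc
Hormad1: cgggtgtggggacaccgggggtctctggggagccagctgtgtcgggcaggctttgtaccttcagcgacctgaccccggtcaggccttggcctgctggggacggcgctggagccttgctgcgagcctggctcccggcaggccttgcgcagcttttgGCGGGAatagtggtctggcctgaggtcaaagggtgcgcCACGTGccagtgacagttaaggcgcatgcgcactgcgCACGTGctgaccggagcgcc
Sycp3 lies on the plus strand of chromosome 10, at chr10:88459337-88459586. Smc1b lies on the minus strand, at chr15:85131958-85132207. Syce1 lies on the minus strand, at chr7:140787855-140788104, and its window held neither string. Syce2 lies on the plus strand, at chr8:84871861-84872110. Hormad1 lies on the plus strand, at chr3:95559427-95559676.

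Levels were taken as RPM, reads-per-million of the reads on protein-coding genes, and as log2 (RPM+1). Depth was 873206 to 2338750 such reads per oocyte, 162033 to 1429292 per granulosa cell and 204699 to 3440997 per mESC with DRaqL-SC3-seq. The summed RPM of 14 oocyte markers was 3720 to 21876 in primary oocytes and 18078 to 45666 in later oocytes, with medians of 7.67 in fresh and 2.46 in LCM mESCs. Neighboring and non-neighboring granulosa cells had medians of 2943 and 64.2 RPM of these markers. Single granulosa cells reached 17299 and 14355 RPM, within the range of primary oocytes. The 10 granulosa markers had medians of 469 and 141 RPM in primary and later oocytes against 6727 and 7416 RPM in neighboring and non-neighboring granulosa cells. As no mouse or follicle is named for a cell, each group of cells was 1 sample: the SDs below are over libraries, the 95% intervals of pooled RPM (exact Poisson) cover counting error only, and no p-value is given between groups of cells.

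The primary DRaqL-SC3-seq libraries held look-alikes. In 5 pairs (O33 with O41, O34 with O42, O35 with O43, O36 with O44 and O37 with O45) the profiles correlated across genes at 0.932 to 0.977, while the other pairs of primary libraries had a median of 0.770 and a highest value of 0.861. A pair of fresh mESCs (r 0.982) and a pair of non-neighboring granulosa cells (0.820) were alike too. The primary pairs differed by more than sampling noise (chi-square of 3.48 to 50.3 per gene), and no label says whether a pair came from 1 oocyte. With each pair counted as 1, the 14 libraries gave 9 profiles. A further primary library, O29, resembled later oocytes (median r 0.869) more than other primary oocytes (0.821). Stage values are therefore given also with each pair averaged and without O29.

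The summed level of the members in DRaqL-SC3-seq oocytes was higher in primary than in later oocytes at the median. The summed RPM of the 31 members had a median of 1953 in primary oocytes (lowest 1138, highest 2489) and of 1142 in later oocytes (937 to 1649). Per primary oocyte, 17 to 28 members had a read (median 24.0), and per later oocyte 19 to 26 did (median 23.5). Thinned to 162033 reads per cell, the medians were 15.0 members in primary oocytes, 17 in later oocytes, 6 in granulosa cells and 9 in mESCs. Most of the sum came from a few genes, since 20 members had a mean log2 (RPM+1) under 4 in both stages.

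Among synaptonemal complex genes, Sycp3 and Syce1 were higher in primary oocytes while Syce2 and Sycp2 were higher in later ones. Sycp3 encodes a protein of the lateral element, and its log2 (RPM+1) was 5.89, 8.31 and 9.22 (lowest, median, highest) in primary oocytes and 3.13, 5.31 and 6.90 in later ones. In 12 of 14 primary libraries it exceeded every later library, and the groups met only at the low end of the primary range. Its pooled level was 320.4 RPM (95% interval 313 to 328) in primary and 43.5 RPM (41.6 to 45.4) in later oocytes, and the mean difference was 2.85 on the log2 scale (2.68 with look-alike pairs averaged, 2.84 without O29).

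Syce1, a central element protein, spanned a wide range in both stages. Its log2 (RPM+1) was 3.20, 7.40 and 9.49 in primary oocytes and 0.00, 3.78 and 6.17 in later ones, where 27 of 30 libraries had a read. Primary libraries lay above every later one in 11 of 14 cases. Its pooled level was 195 RPM (189 to 201) against 18.1 RPM (16.9 to 19.3), with a mean difference of 3.56 (3.66 with pairs averaged, 3.70 without O29).

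Syce2, another central element protein, was the most abundant member in later oocytes. Its log2 (RPM+1) was 2.11, 8.48 and 8.83 in primary oocytes and 8.31, 9.10 and 9.97 in later ones. No primary library reached the later median, and 5 lay below every later library. The pooled level was 328 RPM (319.9 to 335) in primary and 595 RPM (588 to 602) in later oocytes, a difference of -1.26 in means (pairs averaged -1.53, without O29 -1.30). A single primary library, O38, was at 2.11, and without it the difference was -0.82, under 2-fold.

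Sycp2, the lateral element partner of Sycp3, followed Syce2 rather than Sycp3. Its log2 (RPM+1) was 0.73, 4.32 and 6.72 in primary oocytes and 4.32, 5.79 and 6.68 in later ones. Of the primary libraries, 7 lay below every later one, and 1 lay above every later one. The pooled level was 21.7 RPM (19.8 to 23.8) against 52.5 RPM (50.5 to 54.7), a difference of -1.86 in means (pairs averaged -1.72, without O29 -1.89). Sycp1, the transverse filament protein, had means of 3.86 and 3.38 in the 2 stages, and Tex12, its central element neighbour, 2.40 and 2.81. Syce3 was close to the floor, at 4.46 RPM pooled in primary and 0.550 RPM in later oocytes.

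Among the cohesins, Smc1b stood out, and the cohesin protector Sgol2a ran the other way. Smc1b, the meiotic form of the SMC1 subunit, had a log2 (RPM+1) of 3.96, 7.86 and 9.19 in primary oocytes and of 2.83, 4.88 and 6.99 in later ones. In 11 of 14 primary libraries it exceeded every later library. The pooled level was 266 RPM (259 to 273) against 41.6 RPM (39.8 to 43.5), and the mean difference was 2.63 (2.44 with pairs averaged, 2.64 without O29).

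Sgol2a (shugoshin 2), which guards centromeric cohesin, had a log2 (RPM+1) of 0.00, 1.21 and 5.00 in primary oocytes and of 0.00, 4.70 and 6.35 in later ones. Only 1 primary library exceeded the later median. Its pooled level was 5.89 RPM (4.90 to 7.02) against 25.4 RPM (24.0 to 26.9), a difference of -2.61 in means (pairs averaged -2.50, without O29 -2.85). Stag3, the meiotic STAG subunit, was uneven among primary oocytes, where 5 of 14 libraries exceeded every later one, and its means were 2.84 ± 2.70 (SD, n = 14) and 1.82 ± 1.31 (n = 30). The difference of 1.02 fell to 0.99 without O29 and ran from 0.75 to 1.24 with each library left out in turn. The kleisin subunits were barely read: Rec8 had 0.142 RPM pooled in primary and 0.592 RPM in later oocytes, and Rad21l 0.380 and 3.05 RPM.

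Tex14 and Tex15 are known from male germ cells, where Tex14 keeps the bridges between germ cells open and Tex15 serves the repair of meiotic breaks. Tex15 was high in every oocyte and more spread among primary ones, with a log2 (RPM+1) of 6.32, 8.23 and 9.08 in primary oocytes and of 7.09, 7.72 and 8.20 in later ones. Of the 14 primary libraries 7 lay above every later one and 2 below, and the means differed by 0.31 (0.44 with pairs averaged, 0.30 without O29). The pooled level was 291 RPM (283 to 298) in primary and 211 RPM (207 to 215) in later oocytes. Tex14 had a log2 (RPM+1) of 4.00, 7.07 and 8.41 in primary oocytes and of 2.84, 4.56 and 7.27 in later ones. Its pooled level was 156 RPM (151 to 162) against 32.7 RPM (31.1 to 34.4), with a mean difference of 2.13 (2.04 and 2.27), and 7 of 14 primary libraries exceeded every later one.

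The crossover genes were modest and overlapped between stages. Msh4, which with Msh5 clamps recombining DNA, had a log2 (RPM+1) of 0.74, 2.17 and 5.51 in primary oocytes and of 1.82, 4.06 and 5.37 in later ones. Its pooled level was 10.3 RPM (8.98 to 11.8) against 18.4 RPM (17.2 to 19.7), and its means differed by -1.39 (pairs averaged -1.15, without O29 -1.37). Rnf212, a SUMO ligase that marks crossover sites, had a log2 (RPM+1) of 0.00, 2.21 and 6.62 in primary oocytes and of 2.39, 3.97 and 5.80 in later ones. The pooled levels of Rnf212 were close, at 17 RPM (15.3 to 18.9; 10.9 RPM without its highest library, O33) and 18.4 RPM (17.2 to 19.6), whereas its means differed by -1.33 (pairs averaged -1.34, without O29 -1.49). Tex11, a crossover factor on the X chromosome, had a log2 (RPM+1) of 1.1, 4.14 and 7.72 in primary oocytes and of 2.52, 4.19 and 5.23 in later ones, with pooled levels of 31.6 RPM (29.3 to 34.1) and 18.0 RPM (16.8 to 19.3) and a mean difference of -0.28 (pairs averaged -0.06, without O29 -0.39). Library O39 alone had 210.3 RPM of Tex11, and without it the pooled primary level was 18.1 RPM (16.2 to 20.1).

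Of the 20 members under a mean of 4 in both stages, the means ran from 0.02 to 3.86. The largest stage differences among them were those of Hormad1, Trip13 and Ythdc2, all lower in primary oocytes by the mean of logs. Hormad1 had a log2 (RPM+1) of 0.00, 1.17 and 8.09 in primary oocytes and of 1.22, 3.59 and 5.21 in later ones. Its pooled level was 20.6 RPM (18.7 to 22.6) in primary and 13.5 RPM (12.5 to 14.6) in later oocytes, but the primary value came mostly from O40 (271 RPM), and without that library it was 4.05 RPM (3.21 to 5.04). Ythdc2, an RNA helicase needed to enter prophase, had means of 2.41 and 3.84 and pooled levels of 18.5 RPM (16.7 to 20.4) and 14.8 RPM (13.7 to 15.9), the former falling to 9.82 RPM (8.48 to 11.3) without its highest library, O35. Trip13, the ATPase that strips HORMA proteins from the axis, had means of 2.21 and 3.79 and pooled levels of 9.21 RPM (7.96 to 10.6) and 14.4 RPM (13.4 to 15.6). Genes that act at the start of prophase were at the floor: Stra8 had 0.285 RPM pooled in primary and 0.127 RPM in later oocytes, and Spo11, the enzyme that cuts the DNA, 0.190 and 0.0423 RPM.

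**Figure D1:**
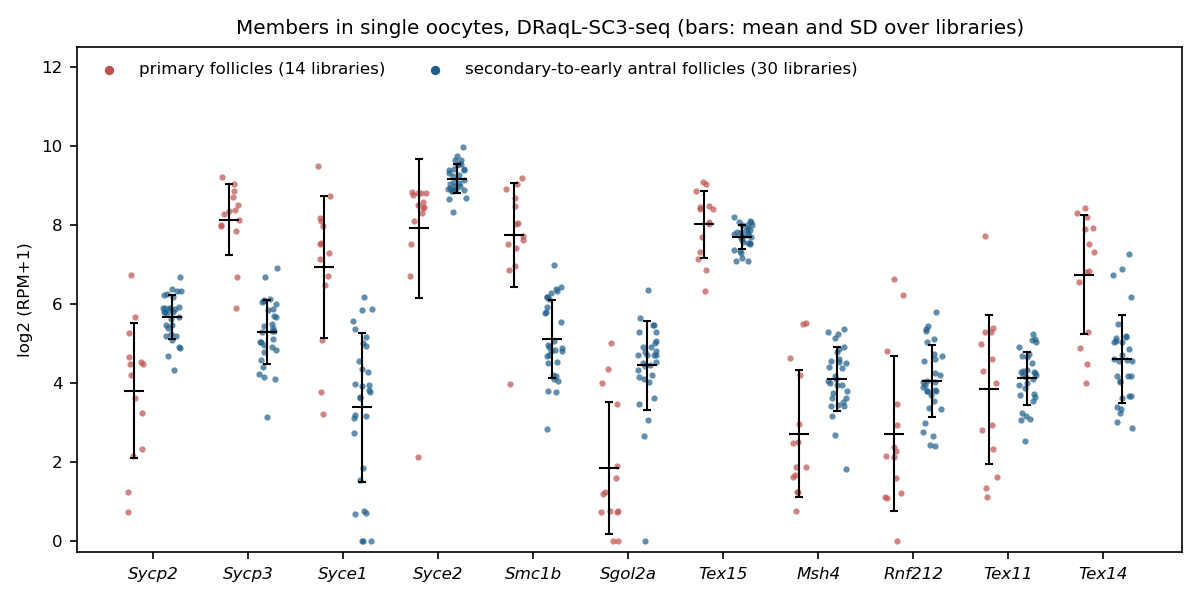
Level of the 11 members with a mean of at least 4 in 1 stage, as log2 (RPM+1) on the vertical axis, in each single oocyte prepared with DRaqL-SC3-seq from primary follicles (14 libraries) and from secondary-to-early antral follicles (30 libraries); bars show the mean and SD over libraries. Sycp3, Syce1, Smc1b and Tex14 sit higher in primary oocytes, Syce2, Sycp2 and Sgol2a sit higher in later ones, and Tex15 lies near 8 in both, more spread in primary oocytes.

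The stage contrast was then read in 4 preparations of oocytes, with a gene counted as higher or lower when its group means differed by at least 2-fold (1 on the log2 scale) and averaged at least 1. A member that passed this filter only through the stage where it was high had to differ, so that the counts describe the members and support nothing further. With DRaqL-SC3-seq, 23 members passed, of which 7 were higher in primary oocytes (15.1% of all genes tested were) and 8 were lower (32.5% of all genes). With SMART-Seq v4, 6 of 24 were higher (16.2% of all genes) and 7 lower (32.2%). With DRaqL-SMART-Seq v4, 9 of 24 were higher (22%) and 4 lower (35%). In formalin-fixed sections, 12 of 25 were higher (24.7%) and 4 lower (26.9%).

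The median difference of the members that passed was 0.30 with DRaqL-SC3-seq, -0.12 with SMART-Seq v4, 0.51 with DRaqL-SMART-Seq v4 and 0.97 in formalin-fixed sections, beside medians over all genes of -0.33, -0.31, -0.28 and 0.01. Scaling by TMM, which sets libraries on a trimmed mean of all genes, moved the median over all genes from -0.33 to -0.22 with DRaqL-SC3-seq and from -0.28 to -0.49 with DRaqL-SMART-Seq v4, and it turned the direction of none of the 11 most abundant members in any preparation. Oocyte markers moved with the stage as well, with median summed levels of 9447 RPM in primary and 36921 RPM in later DRaqL-SC3-seq oocytes, as did 5 early oocyte factors, at 2134 and 1138 RPM. The part of follicle growth, section content and depth in the stage differences was not tested.

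Among the 22 members that passed in every preparation, 4 were higher in primary oocytes by at least 2-fold each time (4.21% of all genes were) and 2 were lower each time (14.6% of all genes). The 4 were Sycp3, Syce1, Smc1b and Stag3, and the 2 were Syce2 and Sgol2a. With each of the 89 oocyte libraries left out in turn, chosen after the values were seen, Sycp3, Syce1, Smc1b and Sgol2a kept this call every time, whereas Stag3 or Syce2 lost it in 22 of the 89 cases. Stag3 lost it when any of 15 DRaqL-SC3-seq libraries was left out (differences of 0.75 to 0.99) and without primary replicate 1 of DRaqL-SMART-Seq v4 (0.78). Syce2 lost it without O38 of DRaqL-SC3-seq (-0.82), when any of 5 SMART-Seq v4 libraries was left out (-0.99 to -0.79) and without primary replicate 1 of the formalin set (-0.88). The difference of Sycp3 was 2.85 with DRaqL-SC3-seq, 3.19 with SMART-Seq v4, 3.52 with DRaqL-SMART-Seq v4 and 3.46 after formalin, and in the last 3 of these no primary oocyte overlapped with a later one. Syce1 differed by 3.56, 5.70, 6.17 and 2.09 in the same order, Smc1b by 2.63, 1.79, 3.80 and 3.29, and Stag3 by 1.02, 1.59, 1.43 and 2.05.

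The values behind these differences show how far apart the cells were. With DRaqL-SMART-Seq v4, Sycp3 was 8.82, 9.53 and 10.23 (lowest, median, highest) in the 6 primary oocytes and 4.55, 6.16 and 7.23 in the 9 later ones. Smc1b was 8.83, 9.33 and 10.51 against 4.55, 5.79 and 6.62, and Syce1 was 6.55, 7.55 and 8.44 against 0.00, 1.05 and 3.91. Each of these members left a gap between the stages in that preparation. Mei1, which is needed to make meiotic breaks, did so as well (1.85, 4.48 and 5.97 against 0.00, 0.00 and 1.80), although with DRaqL-SC3-seq its means differed by only 0.30.

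Syce2 and Sgol2a were lower in primary oocytes, Syce2 by differences of -1.26, -1.03, -1.89 and -1.39 in the 4 preparations and Sgol2a of -2.61, -1.68, -1.98 and -2.82. With DRaqL-SMART-Seq v4 the primary oocytes had a Syce2 level of 5.84, 7.60 and 8.92 and the later ones of 9.13, 9.49 and 9.81, again without overlap. In the formalin set, Sgol2a was 1.06, 2.18 and 5.96 in primary and 3.53, 6.52 and 7.21 in later oocytes, and there the groups overlapped. The later formalin library of replicate 3 was the shallowest oocyte library of its set (188906 reads) and low in several members, and without it Syce2 differed by -1.80 and Sgol2a by -3.27.

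Beyond these 6 members, Mei1, Tex15, Mlh3 and Tex14 were higher in primary oocytes in all 4 preparations and Tex12 and Hormad1 lower, though not each time by 2-fold. By sign alone, 8 of the 22 members were higher and 4 lower in all 4 preparations, beside 2334 and 3930 of 11581 genes. Tex15 differed by 0.31, 0.75, 0.89 and 1.01, and Tex14 by 2.13, 0.84, 2.60 and 1.45. Hormad1 differed by -1.64, -4.38, -0.17 and -1.34. Other members changed sign with the preparation. Sycp1 differed by 0.47 with DRaqL-SC3-seq and -0.25 with SMART-Seq v4, yet by 3.40 with DRaqL-SMART-Seq v4 and 3.41 after formalin. In DRaqL-SMART-Seq v4 its log2 (RPM+1) was 6.07, 7.43 and 8.68 in primary and 0.00, 4.41 and 5.83 in later oocytes. Sycp2 differed by -1.86, -1.51 and -1.42 in the 3 alcohol-fixed sets and by 0.21 after formalin, and Msh5 by 1.42, -2.04, 0.74 and 0.16.

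**Figure D2:**
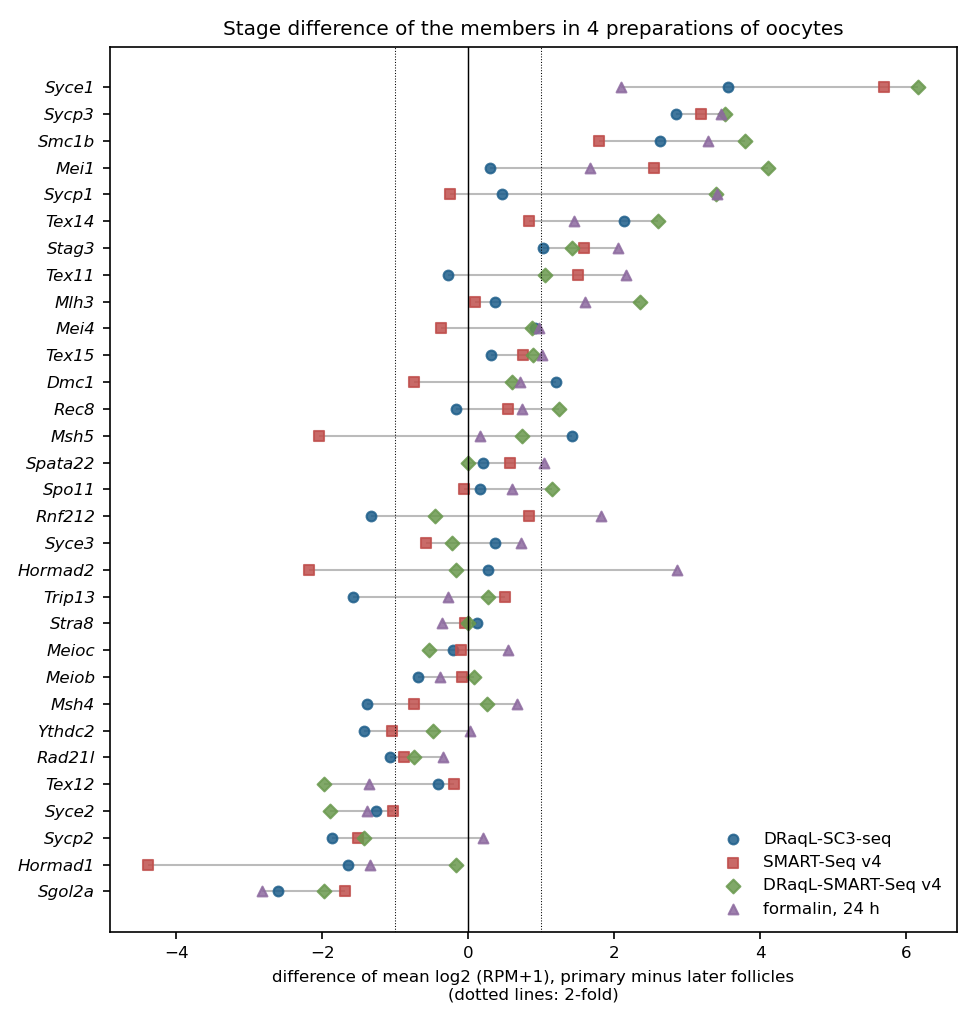
Difference in mean log2 (RPM+1) between primary and later oocytes (horizontal axis, positive where primary is higher) for each of the 31 members (rows), with 1 symbol for each of the 4 preparations and dotted lines at 2-fold. Syce1, Sycp3, Smc1b and Stag3 lie right of the 2-fold line in each preparation, Syce2 and Sgol2a left of it, while Sycp1, Hormad2 and Msh5 are spread on both sides of 0.

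A further 29 prophase genes that are no members were counted in the same way. With DRaqL-SC3-seq, 4 of the 23 that passed were higher in primary oocytes and 11 lower, with a median of -0.99. The 3 highest were Fkbp6 (2.55), Six6os1 (1.91) and Cntd1 (1.67), and the 3 lowest were Exo1 (-3.26), Rad51ap2 (-2.27) and Sun1 (-2.24). The counts of higher and lower genes among the 25 that passed were 3 and 12 with SMART-Seq v4, 6 and 9 with DRaqL-SMART-Seq v4 and 8 and 8 after formalin. The median of the members thus lay above that of this wider list in each preparation (-0.57, -0.51 and -0.46 in the latter 3), which is a description of the 2 lists.

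Pairs of sections of the same oocyte, sequenced apart from 8 oocytes, show how far 2 libraries of 1 oocyte differed. Syce2 had a mean log2 (RPM+1) of 9.67, and its sections differed by a median of 0.18. Tex15 (mean 7.56) differed by 0.32, Smc1b (4.90) by 0.49 and Sycp3 (3.94) by 0.67. Sycp2 (5.02) differed by 1.07 and by up to 3.81, and Sgol2a (4.04) by 0.98. Syce1 (1.78) differed by 1.33 and Stag3 (1.67) by 1.45. Such values describe 2 single libraries that hold different slices of an oocyte, at 4232302 to 17506401 reads each. They are not the error of the DRaqL-SC3-seq stage differences, which lie between means over 14 and 30 libraries. The sections of a single oocyte differed by up to 3.54 for Syce1, 3.09 for Sycp3, 2.90 for Stag3, 2.1 for Smc1b and 2.14 for Sgol2a.

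Set against granulosa cells, the members were higher in oocytes about as often as genes at large with DRaqL-SC3-seq, and more often in some other preparations. As in the stage contrast, a member that passed the filter only through the group where it was high had to differ. The counts here, against mESCs and between LCM and dissociated oocytes thus describe the members and support nothing further. With DRaqL-SC3-seq, of the 22 members that passed, 16 were at least 2-fold higher in oocytes, as were 72.4% of all genes tested, and 0 were lower (4.97% of all genes). The median difference was 1.98 for the members and 1.95 for all genes, or 1.82 for all genes after TMM scaling. With SMART-Seq v4, 18 of 22 were higher (74.5% of all genes), with DRaqL-SMART-Seq v4 17 of 23 (51.1%) and after formalin 16 of 22 (53.5%), with medians of 2.69, 2.80 and 2.23 for the members and of 2.04, 1.04 and 1.15 for all genes. In the same-mouse set, 14 of 19 were higher with LCM (65.1%) and 14 of 19 after dissociation (64%). Lower in oocytes were 0 members with SMART-Seq v4 (3.78% of all genes), 0 after formalin (8.44%) and 1 with DRaqL-SMART-Seq v4 (Tex14, 10.9%). In the same-mouse set, 3 were lower with LCM (Tex15, Tex14 and Mei4, 11.1%) and 1 after dissociation (Tex15, 14.4%). With DRaqL-SC3-seq, the members furthest above granulosa cells were those of the synaptonemal complex, with differences of 5.44 for Syce2, 5.26 for Sycp3, 5.11 for Syce1 and 4.41 for Sycp2. Syce1 was read in 2 of 57 granulosa cells and Sycp2 in 10 of 57. Tex15 differed by 1.05, and Tex14 (0.40) and Sycp1 (0.30) were under 2-fold. The oocyte value averages both stages, and Tex14 had means of 6.74 in primary oocytes, 4.61 in later oocytes and 5.27 in granulosa cells.

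Against mESCs, 12 of the 21 members that passed were higher in oocytes (49.5% of all genes were) and 3 were lower (17.8%). These comparisons share the oocyte libraries. The 3 lower members were Trip13 (-3.01), Rec8 (-2.16) and Sgol2a (-1.07), and TMM scaling moved the median over all genes from 0.97 to 0.57. The oocyte value averages both stages. For Sgol2a the means were 1.83 in primary oocytes, 4.44 in later oocytes and 4.21 in mESCs, so only the primary stage lay below mESCs. Trip13, which also acts in the mitotic spindle checkpoint, had a log2 (RPM+1) of 2.93, 6.26 and 8.19 in fresh mESCs and of 2.30, 6.23 and 7.75 in LCM mESCs. Rec8 was patchy among mESCs, with 0.00, 1.55 and 8.10 in fresh cells and a read in 37 of 45, whereas its oocyte mean was 0.22. Syce2 was read in all 81 mESCs, with means of 5.96 in fresh and 5.54 in LCM cells.

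Further members above a mean of 2 in fresh mESCs were Sgol2a (4.19), Syce1 (3.47), Tex15 (3.19), Ythdc2 (3.08), Stag3 (2.91), Sycp1 (2.68), Hormad2 (2.62), Hormad1 (2.55) and Tex11 (2.13). In LCM mESCs these members had 4.23, 2.01, 3.61, 2.00, 2.25, 2.94, 1.75, 1.39 and 2.36. Tex14 passed 2 in LCM mESCs, with a mean of 3.05 against 1.74 in fresh ones. Syce1 ranged from 0.00 to 8.62 among fresh mESCs and from 0.00 to 7.55 among LCM mESCs, so that single mESCs reached the levels of primary oocytes. Sycp2 had 0 reads in the 81 mESCs, which allows a pooled level of up to 0.0415 RPM in fresh and 0.0524 RPM in LCM cells, and a share of cells with a read of up to 4.45% (exact binomial).

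**Figure D3:**
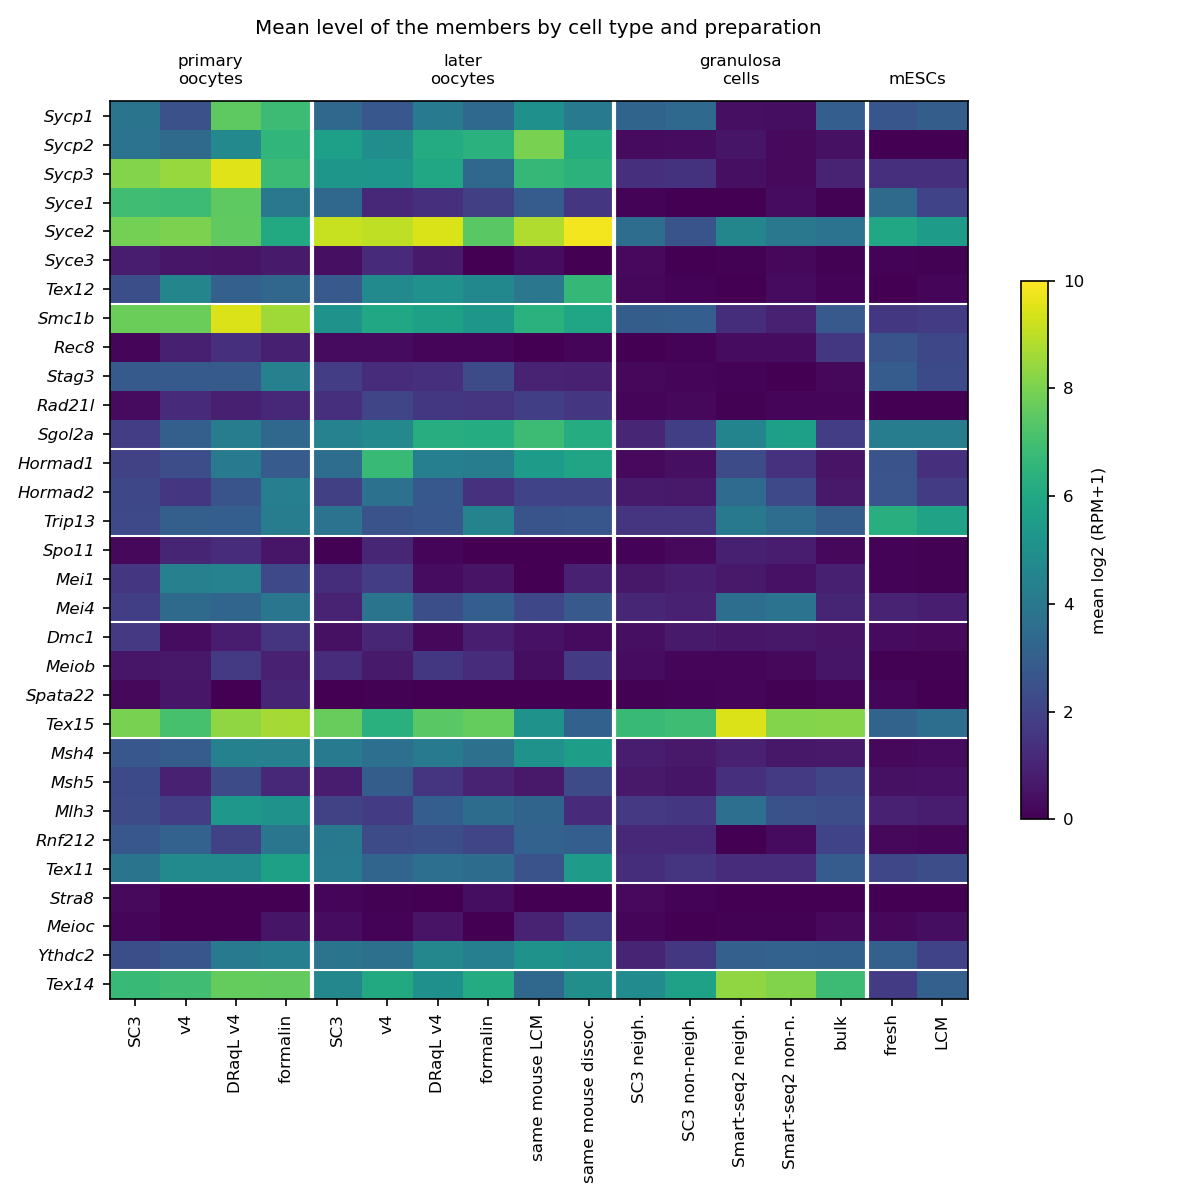
Mean log2 (RPM+1) of the 31 members (rows, grouped by role) in primary oocytes, later oocytes, granulosa cells and mESCs (columns, by preparation), on a colour scale from 0 to 10. Syce2 is bright in each oocyte column and medium in mESCs, Sycp3, Syce1 and Smc1b are brighter in primary than in later oocytes, and Tex14 and Tex15 are bright in granulosa cells as well.

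Tex15 and Tex14 were the members read most in granulosa cells. With DRaqL-SC3-seq, Tex15 had a log2 (RPM+1) of 0.00, 6.76 and 11.44 in neighboring and of 0.00, 7.61 and 10.22 in non-neighboring granulosa cells. It was read in 55 of 57 cells, or 89.5% after thinning to 162033 reads (exact interval 78.5 to 96.0%), against 63% (51.5 to 73.4%) of mESCs. Tex14 had 0.00, 4.74 and 10.42 in neighboring and 0.00, 6.16 and 9.06 in non-neighboring cells. Both genes thus ran from no read to levels above those of the oocytes. Syce2 followed with means of 3.59 in neighboring and 2.60 in non-neighboring cells, and its pooled level was 128 RPM (123 to 133) and 28.7 RPM (26 to 31.7).

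The levels depended on the preparation. The mean of Tex15 over the positions was 6.8 with DRaqL-SC3-seq, 3.81 with SMART-Seq v4, 7.91 with DRaqL-SMART-Seq v4, 8.24 with LCM-seq, 8.80 with DRaqL-Smart-seq2 and 8.93 after formalin. Tex14 had 5.27, 6.25, 8.77, 7.57, 8.23 and 7.57 in the same order. In the same-mouse set, Tex15 averaged 8.75 in LCM granulosa cells and 5.12 in LCM oocytes, and 7.65 in dissociated granulosa cells and 3.10 in dissociated oocytes, so there the granulosa cells were higher (oocytes minus granulosa cells -3.63 and -4.55). Tex14 overlaps annotated small RNA genes (U1 and U3), and how reads were shared between them was not tested.

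Oocyte markers were also found in granulosa libraries, and the members are given beside them. Among DRaqL-SC3-seq granulosa cells, the 42 libraries GC001 to GC069 had a median of 87.9 RPM of oocyte markers, and the 15 libraries GC073 to GC100 a median of 3651 RPM. The 29 members other than Tex14 and Tex15 summed to medians of 133 and 200.4 RPM in these sets, and Tex14 with Tex15 to 338 and 323 RPM. The part of oocyte RNA in the members' reads was not tested. Leaving out the second set left 15 members higher in oocytes than in granulosa cells, in place of 16 with both sets. The share over all genes is not given for that setting, so the count only describes the members.

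Sycp1 and Smc1b were read in granulosa cells more with DRaqL-SC3-seq than with the other preparations, of which the SMART-Seq v4 and DRaqL-Smart-seq2 libraries read 3′ ends as well. Sycp1 was read in 57 of 57 granulosa cells and 80 of 81 mESCs with DRaqL-SC3-seq, at a mean of 3.32 in granulosa cells, whereas its granulosa mean in the other preparations was 0.08 to 0.42. Smc1b had a granulosa mean of 2.97 with DRaqL-SC3-seq and of 0.29 to 1.49 elsewhere. The authors counted reads within 10 kb of the 3′ ends of genes, and 19 members had another protein-coding gene within such reach, 8 of them on the same strand. Sycp1 was not among the 19 and overlaps only pseudogenes, on the opposite strand. For Smc1b the protein-coding gene in reach was Fam118a, on the opposite strand. The part of such neighbours was not tested. Sycp3, Syce2, Sgol2a and Tex12 overlap a gene on the opposite strand (Chpt1, Gcdh, Kctd18 and Il18), with which reads could be shared where strand was not kept.

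**Figure D4:**
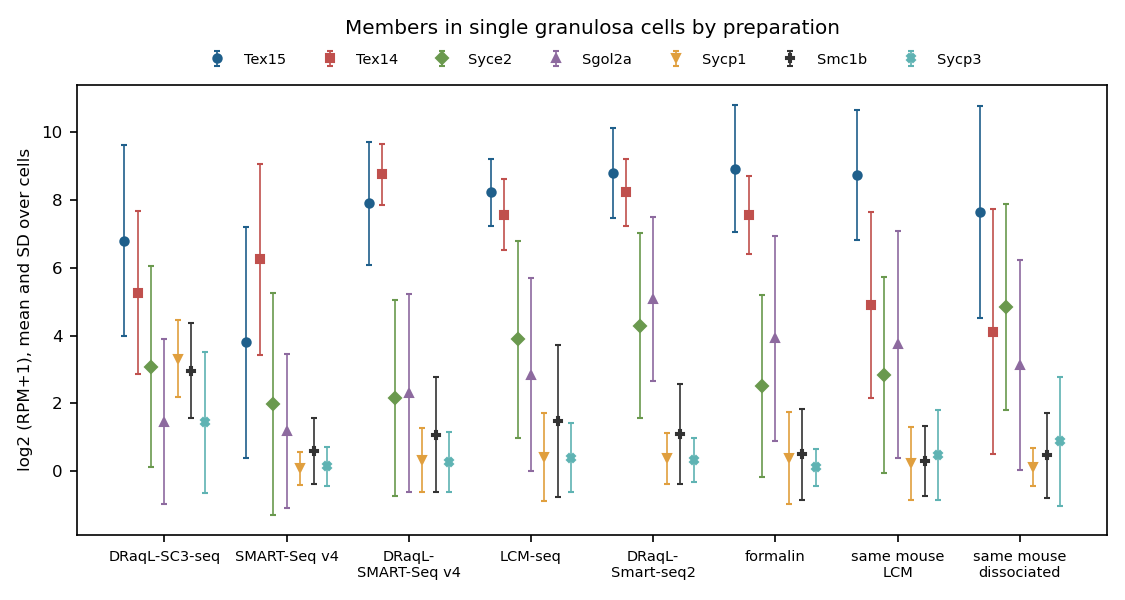
Level of 7 members in single granulosa cells, as log2 (RPM+1) on the vertical axis, for 8 preparations on the horizontal axis; symbols show the mean and bars the SD over cells. Tex15 and Tex14 are the highest members in most preparations, from 3.81 to 8.93 for Tex15, and Sycp1 and Smc1b are near 3 with DRaqL-SC3-seq and under 1.5 elsewhere.

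Oocytes of a single mouse, isolated with LCM or freshly dissociated, differed in both directions. Of the 23 members that passed, 4 were at least 2-fold higher in LCM oocytes (21.2% of all genes were) and 6 were lower (19.0%), and the median over all genes was 0.02. Mlh3, a mismatch repair protein that resolves crossovers, was higher by 2.02, Tex15 by 2.01, Sycp2 by 1.80 and Syce1 by 1.32. Tex11 differed by -2.94, Tex12 by -2.68, Msh5 by -1.66, Tex14 by -1.61, Meiob by -1.40 and Syce2 by -1.02. For Tex12 the 8 LCM oocytes had 2.60, 4.00 and 5.93 and the 14 dissociated oocytes 6.05, 6.74 and 7.37, with no overlap. For Sycp2 the LCM oocytes had 6.86, 7.79 and 10.38 and the dissociated ones 5.57, 6.21 and 6.84, which also did not overlap. Sycp3 had means of 6.66 ± 0.78 (SD over cells) and 6.42 ± 0.72, and Hormad1 of 5.52 ± 0.72 and 5.85 ± 0.55, which overlapped throughout. The sets also differed in the amplification (DRaqL-Smart-seq2 or Smart-seq2), in the cAMP analog, in the ovary and, by label, in follicle size, and a section holds a slice of an oocyte, so that none of these can be told apart from the isolation.

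Granulosa cells were also collected as pools, 7 of neighboring and 7 of non-neighboring cells, and as 7 bulk samples of whole granulosa. Only the pools form a comparison of separate collections, and there fewer cells with a transcript and less of it per cell cannot be told apart. With edgeR's quasi-likelihood test, 0 of the 8 members tested passed an adjusted p of 0.05, beside 44 of 9704 genes (0.453%), and 1 member passed an unadjusted p of 0.05. DESeq2 also called 0 of the 8 members. That member was Syce2, which differed by 2.46 ± 1.02 (log2, SE; neighboring minus non-neighboring), with p = 0.0254 and an adjusted p of 0.998 by edgeR. Its log2 (RPM+1) was 2.69, 4.69 and 7.54 in neighboring and 1.27, 3.83 and 4.97 in non-neighboring pools. Oocyte markers moved in the same direction, from 856 to 8865 RPM in neighboring and from 2.34 to 151 RPM in non-neighboring pools. Without the 3 pool numbers richest in oocyte markers, chosen after seeing the data, Syce2 differed by 0.49 ± 1.35. In that smaller set 0 of 10377 genes passed an adjusted p of 0.05 by edgeR and the SE was wider, so no conclusion is drawn from the smaller difference. The part of oocyte RNA in the Syce2 difference was not tested. Tex15 differed by 0.46 ± 0.58 (adjusted p = 0.998), with 6.5 to 9.12 in neighboring and 4.99 to 9.24 in non-neighboring pools, and Tex14 by 0.15 ± 0.92 (adjusted p = 0.998).

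Libraries with Y-shaped adapters, from 5 later oocytes and 10 mESCs, read beyond the 3′ ends of transcripts and were counted per exon. As such reads lean toward 3′ ends by the study's description, division by length can set long genes too low, and the order of genes below is approximate. Depth on protein-coding genes was 3187867 to 3863797 reads per oocyte and 2738894 to 7091131 per mESC, and both labels of mESCs were pooled. In exon reads-per-million per kb of the longest transcript, Syce2 had 337, 351, 352, 462 and 494 in the 5 oocytes and 13.9 to 90.8 in mESCs. It stood far above the next member, Sycp3, with 16, 27, 32.1, 35.1 and 44 in oocytes and 0 to 28.1 in mESCs. Tex15 followed with a median of 18.6, Tex12 with 13.5, Rnf212 with 11.2, Sycp2 with 8.83 and Smc1b with 8.46. From Sycp3 to Smc1b the ranges of neighbours in this order overlapped.

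Of the 27 members with an exon read in any of these cells, 9 had every oocyte above every mESC (14.4% of all genes with a read did). For 1 member, Trip13, every oocyte lay below every mESC, as for 774 of the 16421 genes with a read. The 9 were Syce2, Tex15, Tex12, Rnf212, Sycp2, Smc1b, Msh4, Sycp1 and Msh5. Trip13 had 1.23 to 11.3 in oocytes and 11.9 to 84.1 in mESCs. Smc1b, Msh4 and Rnf212 had no exon read in any mESC, and Sycp1 had one in 1 of 10. Syce1 was 0.203, 4.41, 6.59, 16.3 and 16.5 in oocytes and 0 to 100.1 in mESCs, wide in both. Dmc1, the meiotic strand exchange recombinase, had no exon read in the 5 oocytes, nor had Spo11, Spata22, Stra8 and Syce3. With DRaqL-SC3-seq each of these had some reads in oocytes.

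Spliced reads were found for most of these members. Counting junctions above 2 CPM (TMM-scaled) in at least 1 oocyte, 84 junctions of 20 members were seen (64.5% of members, against 38.2% of all genes), with 20 to 47 per oocyte. In mESCs 41 junctions of 10 members were seen (32.3%, against 26.6% of all genes). Syce2 had 1891 junction reads in oocytes and 933 in mESCs, Tex15 had 337 in oocytes, and Sycp2 had 185 over 14 such junctions in oocytes and none in mESCs. Smc1b had 62, Msh4 54 and Rnf212 46 in oocytes. In mESCs the most junction reads after Syce2 were those of Trip13 (320), Sgol2a (312), Stag3 (282), Syce1 (184) and Rec8 (180). No junction of Sycp3 was listed for either cell type, although all 8 of its exons had reads in oocytes.

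**Figure D5:**
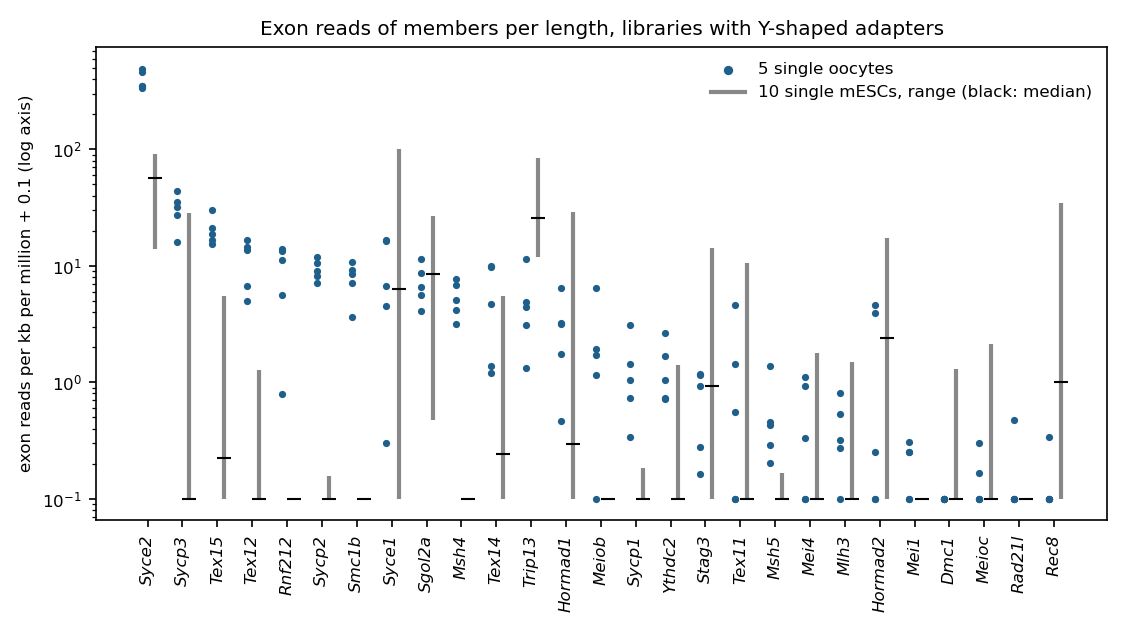
Exon reads-per-million per kb of transcript, plus 0.1, on a log vertical axis, for the 27 members with a read (horizontal axis, ordered by the oocyte median); points are the 5 oocytes, grey bars the range and black marks the median of 10 mESCs. Syce2 is highest, at 337 to 494 in oocytes, and Trip13 is the member whose oocytes all lie under the mESC range.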

How the data were processed

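Single cells, pools and sections of mouse ovary and mESCs were sequenced, and the values used are raw read counts per gene, exon or junction as the authors deposited them. The submitters' processing notes name fastp 0.20.0, cutadapt 1.16, HISAT2 2.1.0, GRCm38, HTSeq 0.10.0 and featureCounts 2.0.1; gene counts included reads within 10 kb of 3′ ends. Wide windows can add reads of neighbouring genes, and reads copied during amplification were not collapsed by identifiers, so the intervals cover counting error only. Spike-in tables were not used.

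The members and all lists were chosen with earlier results of these data known. Counts were divided by the total over 22060 protein-coding genes (RPM) and read as log2 (RPM+1) with a pseudocount of 1. Genes whose group means averaged at least 1 were compared, and 2-fold was the limit. Where a side held several groups, such as both oocyte stages, the group means were averaged first. Groups of cells were 1 sample each, without a test. Detection was compared also after thinning to 162033 reads (seed 58). Intervals are at 95%, exact Poisson for pooled RPM and Clopper-Pearson for shares. Granulosa pools were tested with edgeR 4.0.16 (quasi-likelihood, TMM, filterByExpr, Benjamini-Hochberg over all genes tested), with DESeq2 1.42.0 as an alternative. Nothing says whether pools came from separate mice, so that p-values measure the spread between pools alone. Scripts ran in Python 3.11.15 and R 4.3.3 and were tested on simulated data.

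Named with full values were members with a mean of at least 4 in 1 DRaqL-SC3-seq oocyte group. The others were given by ranges, with the 3 of largest stage difference as examples, and members above 2 in mESCs or granulosa cells were named there. Members added beyond this rule, where a role or preparation called for them, were chosen after their values were seen. Depth was 12748 to 17506401 reads over all gene libraries. The alternatives were other pseudocounts, filters, folds and scalings, thinning, pooled ratios and left-out libraries.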

Additional observations from a re-analysis of the deposited data

Results flagged for a closer look

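In 9 groups of 4 to 10 samples, 12 levels each (the summed members and the 11 most abundant) were looked at, and 15 of these sets held a library whose gap to the nearest other value was large against the range of its group (Dixon's ratio above its 95% critical value). Chance flags about 1 in 20, which comes to 5.4 sets. All values are log2 (RPM+1).

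In primary oocytes, Tex15 stood at 8.69 in the SMART-Seq v4 library of replicate 7 (others 6.35 to 7.35), and Tex11 at 0.00 in the same library (others 4.03 to 6.43). In the formalin set, Tex15 stood at 7.51 in replicate 1 (others 8.73 to 9.20).

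In later oocytes prepared with DRaqL-SMART-Seq v4, Msh4 stood at 0.00 in replicate 2 (others 4.00 to 6.24) and Tex14 at 0.00 in replicate 7 (others 4.09 to 7.51). The formalin library of replicate 3, with 188906 reads, was low in 5 sets. There the summed members stood at 8.34 (others 9.71 to 10.47), Syce2 at 5.03 (7.29 to 8.22), Sgol2a at 3.53 (6.31 to 7.21), Tex15 at 5.75 (7.70 to 8.43) and Msh4 at 0.00 (3.54 to 5.37). In the same-mouse LCM oocytes, the summed members stood at 11.40 in replicate 8 (others 10.20 to 10.61).

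In bulk granulosa cells, replicate 4 had Sycp2 at 2.91 (others 0.00 to 0.21) and Rnf212 at 4.48 (others 1.19 to 2.52). In neighboring pools, replicate 4 had Sycp2 at 5.56 (others 0.00 to 0.54) and Msh4 at 5.40 (others 0.22 to 1.22).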

How the results depend on the processing

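Of 177 alternative counts, 168 stayed within 1.5 times the main count and 9 moved, and none turned direction. Of 440 alternative stage differences of single members, 436 stayed within the spread between libraries and 4 moved, all of Syce1, which was 7.91 and 3.26 with SMART-Seq v4 and 7.85 and 3.93 with DRaqL-SMART-Seq v4 at pseudocounts of 0.1 and 10.

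With a pseudocount of 10 in place of 1, the members past 2-fold between stages fell from 15 to 7 with DRaqL-SC3-seq and from 13 to 6 with SMART-Seq v4, those between oocytes and granulosa cells from 16 to 6, and those between LCM and dissociated oocytes from 10 to 5. With a limit of 3.48-fold, the stage counts were 6 with DRaqL-SC3-seq, 6 with SMART-Seq v4 and 9 (from 16) after formalin, and the count between LCM and dissociated oocytes was 5. With 5 in place of 2 CPM, 53 junctions in place of 84 were seen in oocytes. A higher pseudocount or limit leaves fewer genes past it by construction. Shares over all genes are not given for the alternatives here and below. Whether the members moved more or less than genes at large is thus not shown.

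Leaving out 1 primary formalin oocyte in turn gave 13 to 17 members past 2-fold. Chosen after seeing the data, averaging look-alike pairs gave 14 members with DRaqL-SC3-seq, leaving out O29 gave 14, and leaving out the shallow later formalin library gave 15. Also chosen after seeing the data, leaving out each oocyte library in turn gave 4 to 7 members past 2-fold in 1 direction in all 4 preparations, in place of 6, with Stag3 or Syce2 lost in 22 of 89 cases. In the pools, 0 members passed with each pool number left out, with no filter (27 members tested) and without pool numbers 4, 5 and 6, also chosen after seeing the data. With the pool number as a replicate block, 0 members passed, beside 3 genes in all in place of 44. Same-numbered pools deviated together with correlations of 0.01 to 0.19, so the numbers were not taken as pairs.

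Depth limits the members near the floor, where a library of the shallow sets can miss a transcript. By the study's text the 4 preparations share an ovary, and the labels name no mouse for a cell, so that the spread between mice was not measured, and look-alike libraries lower the number of independent primary oocytes. Counts near 3′ ends can hold reads of neighbouring genes.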
